A study of Mus musculus with 6 samples.

Results

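The redox enzymes described here are 9 genes of germ cell antioxidant defence, Gpx4, Txnrd3, Txndc2, Txndc8, Prdx4, Prdx6, Sod1, Sod2 and Cat, out of 32285 genes counted in single-cell RNA sequencing of the mouse testis. They were chosen by name and function and not by a measured value, but with earlier results of these data known. Each gene was followed through 12 classes of testis cells (9 of germ cells and 3 of somatic cells) and between diets. The testes came from wildtype C57BL/6 mice (C57BL/6N in the study's methods) of 8 weeks of age, fed for the last 2 weeks on a diet rich in fat (HFD) or on its low-fat counterpart (LFD), with 1 library per mouse and 3 libraries per diet. No animal carried a transgene or a deletion, and the LFD animals are the control group.

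Reactive oxygen species are by-products of respiration, and the enzymes that remove them work in a chain. Superoxide dismutases turn superoxide into hydrogen peroxide, which catalase, peroxiredoxins and glutathione peroxidases then reduce. Thioredoxins and thioredoxin reductases return the oxidised enzymes to their working state with electrons from NADPH. In the testis this chemistry has a structural use as well: during spermatid maturation thiols of the sperm midpiece and chromatin are oxidised to disulfides, and the selenoenzyme Gpx4 ends as an insoluble part of the mitochondrial capsule of the sperm tail. Txndc2 and Txndc8 are thioredoxin family proteins known from spermatids, where Txndc2 lies at the fibrous sheath of the tail, and Txnrd3 is a reductase for thioredoxin and glutathione found mainly in the testis. Prdx4 is the peroxiredoxin of the endoplasmic reticulum, Prdx6 a peroxiredoxin that also acts on phospholipids, Sod1 the cytosolic and Sod2 the mitochondrial superoxide dismutase, and Cat encodes catalase of peroxisomes.

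The catalytic residues of the germ cell selenoenzymes and thioredoxins can be read in their genes, and the stretches around them are shown because they define what each protein is. In Gpx4 and Txnrd3 the selenocysteine is written as TGA, a codon that elsewhere ends translation, and it stands in capitals below with its reading frame kept. The Gpx4 codon lies at chr10:80054737-80054739 (GRCm38, plus strand), in exon 3 of transcript Gpx4-201, where it is codon 129 of 253. The Txnrd3 codon lies at chr6:89674789-89674791 (plus strand), in exon 16 of Txnrd3-201, as codon 614 of 615, the last but 1 before the stop.
Gpx4: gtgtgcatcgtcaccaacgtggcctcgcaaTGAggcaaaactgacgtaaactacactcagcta
Txnrd3: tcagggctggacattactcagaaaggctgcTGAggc

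Txndc2 and Txndc8 share the thioredoxin active site, a pair of cysteines around glycine and proline. Both genes spell it with the same 12 bases, in capitals below. In Txndc2 these lie at chr17:65637741-65637752 (minus strand) in exon 3 of Txndc2-201, starting at codon 477 of 550, and in Txndc8 at chr4:58007099-58007110 (minus strand) in exon 2 of Txndc8-201, starting at codon 58 of 153.
Txndc2: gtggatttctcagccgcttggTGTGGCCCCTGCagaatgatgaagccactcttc
Txndc8: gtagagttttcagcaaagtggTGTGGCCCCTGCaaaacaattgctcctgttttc

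Because these same thioredoxin genes were lower in spermatocytes than in spermatids, the 250 bases before their start sites are shown as well, from RefSeq on GRCm38.p6, which held 8 of the 9 genes (all but Prdx6). The Txndc2 stretch is chr17:65642205-65642454 and the Txndc8 stretch chr4:58009127-58009376, both on the minus strand and printed in the direction of the gene.
Txndc2: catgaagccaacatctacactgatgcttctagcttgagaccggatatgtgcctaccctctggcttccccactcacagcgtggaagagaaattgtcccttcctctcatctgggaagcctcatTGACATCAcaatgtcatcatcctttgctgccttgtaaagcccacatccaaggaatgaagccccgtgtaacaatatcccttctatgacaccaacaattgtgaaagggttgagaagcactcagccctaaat
Txndc8: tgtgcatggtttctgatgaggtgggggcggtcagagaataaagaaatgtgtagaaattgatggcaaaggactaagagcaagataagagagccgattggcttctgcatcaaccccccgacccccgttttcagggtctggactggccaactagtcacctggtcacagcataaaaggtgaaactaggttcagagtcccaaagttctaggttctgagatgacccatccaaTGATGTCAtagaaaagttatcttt
Capitals mark matches to TGANNTCA, searched on both strands, a relaxed form of the sequence TGACGTCA that cAMP-responsive factors bind. The match started 129 bases before the Txndc2 start and 24 bases before the Txndc8 start. None was found in the other windows of the 8 genes, which had 12 windows in all. Of 32851 RefSeq promoters 11.9% hold TGANNTCA in their 250 bases and 1.55% hold TGACGTCA. Other motifs were searched too. TGACG, a part of TGACGTCA that 17.8% of the promoters hold, was found in windows of Gpx4, Prdx4 and Sod1 and in none of Txndc2 or Txndc8. Prdx4 and Sod1 were also lower in pachytene and late spermatocytes than in spermatids. TGANNTCA was searched after the sequences had been seen, and a match is a description of letters, not of binding.

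The 6 libraries held 48939 barcodes and 429495465 unique molecules (UMIs), between 39196921 and 95845514 per library. Barcodes were placed in classes by the UMIs of marker genes, none of them a redox gene of this report, and a class name below means barcodes that are like that cell type by these markers. Of all barcodes 26.6% (13032) passed a gate, and they held 72.3% of the UMIs. Of 47 further markers kept out of the gates, 28 peaked in their own class and 39 in it or a neighbouring class. For late spermatocytes 1 of 4 peaked in the class and 2 in it or a neighbour. For early round spermatids the counts were 0 and 2 of 3, so these class names are less certain. Class sizes ran from 470 barcodes (early round spermatids) to 3575 (later round spermatids) among germ cells, with 490 Sertoli cells, 226 macrophages and 160 Leydig, peritubular and stromal cells. Levels are given as CPM, the UMIs of a gene scaled to 1000000 UMIs of the same class in the same library. UMIs near the 3-prime end do not measure transcript length, so levels were compared between classes and not between genes, and the transcripts of 1 gene (the Gpx4 forms among them) could not be told apart.

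Some facts of the libraries touch every value below. The file names state the opposite diet for all 6 libraries, and groups follow the sample labels. If the file names were right, each diet difference would change its sign and keep its p-value. Both libraries numbered 1 stood apart from the other 4, with haemoglobin transcripts at 0 and 0.0209 CPM against 30.5 to 99.7 CPM, and with more late condensing spermatids (5.57% and 4.86% of barcodes, against 0.443% to 1.27%) and Sertoli cells (1.66% and 3.15%, against 0.185% to 0.643%). Libraries shared between 12 and 28 barcode sequences in each pair, at most 0.320% of the smaller library. Free RNA of spermatids reached all classes. The spermatid genes Prm1, Prm2, Tnp1 and Tnp2 had, in spermatogonia, 16.6% to 21.0% of their level in the whole library, in early prophase 24.9% to 32.3%, in pachytene spermatocytes 6.80% to 8.87%, in late spermatocytes 6.51% to 8.73%, in macrophages 47.8% to 58.7% and in Sertoli cells 85.1% to 94.3%. A redox gene at such a share of its own library level was read as not told from background. The range is that of late spermatid genes, and the free share of genes from other stages was not measured. In Sertoli cells Txnrd3 and Txndc8 stood below it, at 42.7% and 41.5%, so the range can be too high for some genes. Markers of somatic cells were near 0 in germ cells: the summed level of the gate markers of any somatic class was at most 0.314% of its level in its own class.

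The 9 genes fell into different stages of germ cell development. Among the 9 germ cell classes, Txnrd3, Prdx6 and Sod2 had their highest mean CPM at the end of meiosis and Txndc8 in later round spermatids. Txndc2 and Prdx4 had it in elongating spermatids, and Gpx4 and Sod1 in the last class, late condensing spermatids. Cat alone was highest in spermatogonia. The ratio of the highest to the lowest class mean was 6.74 for Gpx4 and 6.87 for Prdx6, between 10.4 and 13.9 for Sod2, Txnrd3 and Sod1, and 29.0, 44.5 and 70.0 for Txndc8, Prdx4 and Txndc2. Library ranges separated only some neighbours in these orders of level: of 8 neighbouring pairs per gene, ranges were apart in 4 for Prdx4, Prdx6 and Sod1, in 3 for Txndc2, in 2 for Txnrd3, Txndc8, Sod2 and Cat, and in 1 for Gpx4.

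Changes were tested at each of the 8 steps between neighbouring germ cell classes, in 1 fit of edgeR's quasi-likelihood test over 15263 genes with the library as a block and adjusted p-values over all of them. Between 26.8% and 72.2% of these genes were called at a step, and each count of redox genes stands beside that share. From spermatogonia to early prophase 6 of the 9 were called (3 higher, 3 lower), with 57.4% of all genes called (29.7% higher, 27.7% lower). Into the pachytene class 8 were called (4 higher, 4 lower) against 72.2% (32.9% higher, 39.3% lower), and into late spermatocytes 7 (6 higher, 1 lower) against 69.7% (33.1% higher, 36.6% lower). Into early round spermatids 5 were called (4 higher, 1 lower) against 56.5% (28.4% higher, 28.1% lower), and into later round spermatids 7 (6 higher, 1 lower) against 51.8% (30.5% higher, 21.3% lower). At the start of elongation 7 were called (4 higher, 3 lower) against 63% (29.4% higher, 33.6% lower). Into elongating spermatids 6 were called (4 higher, 2 lower) against 36.8% (12.9% higher, 23.9% lower), and into late condensing spermatids 6 (3 higher, 3 lower) against 26.8% (13.7% higher, 13.2% lower). The counts stood furthest above the share of all genes into elongating and late condensing spermatids, with 6 of 9 against 36.8% and 26.8%. With only 9 genes, no test set these counts against other genes.

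**Figure D1:**
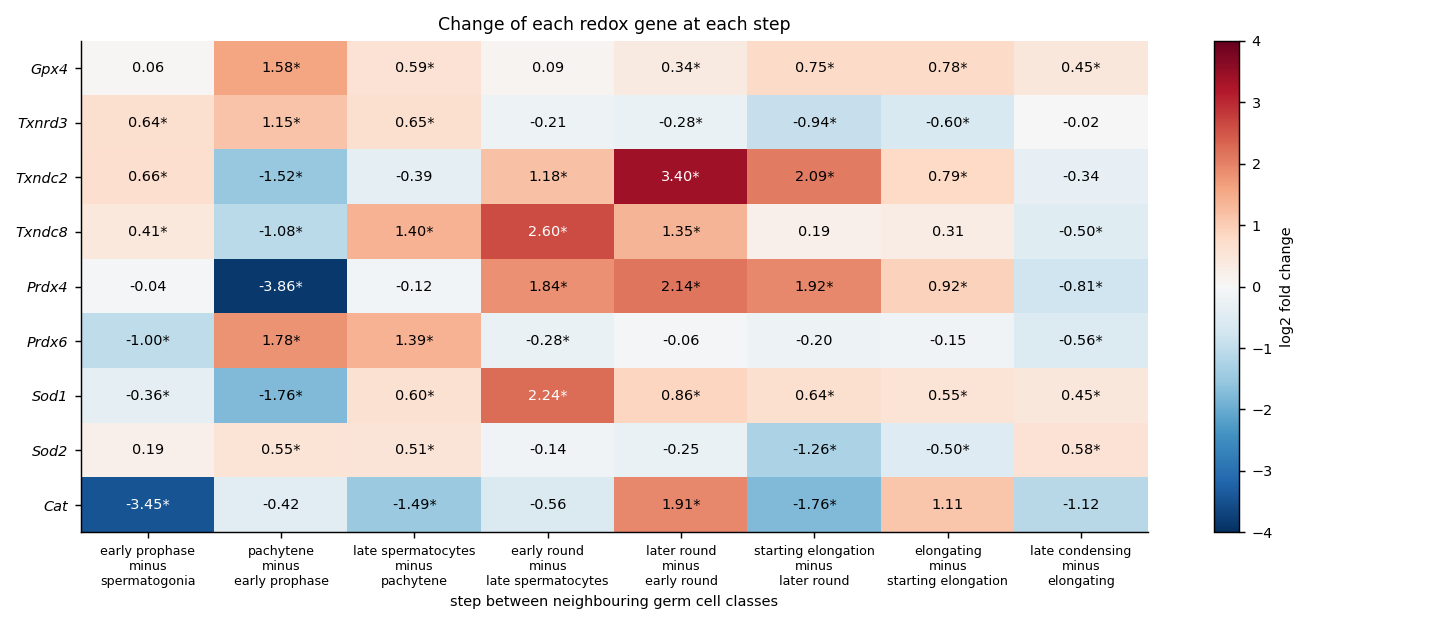
Log2 fold change of each redox gene (rows) at each step between neighbouring germ cell classes (columns), with the later class minus the earlier one. Red is higher and blue lower, and an asterisk marks an adjusted p under 0.05 (edgeR, over 15263 genes). Prdx4 fell by 3.86 into the pachytene class, and Txndc2 rose by 3.40 into later round spermatids.

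Gpx4, the selenoenzyme that reduces lipid peroxides in membranes, rose at 6 of the 8 steps and fell at none. In early prophase its level ran from 547.4 to 865.4 CPM over the 6 libraries with a median of 656.1, and in spermatogonia from 478.2 to 922.2 with a median of 734.8. The libraries of these 2 classes overlapped, and the step between them was not called. The early prophase level was 30.2% of the whole-library level, within the 24.9% to 32.3% of the spermatid genes in that class, and so could not be told from free RNA, while the spermatogonial share (31.1%) was above the 16.6% to 21.0% there. Pachytene spermatocytes held 1191 to 2066 CPM (median 1704), a log2 change of 1.58 ± 0.12 (SE, adjusted p = 1.58e-18), and every pachytene library was above every spermatogonial one. The level then rose into late spermatocytes (0.59 ± 0.12), to 2304 ± 365 CPM (SD, n = 6), and early round spermatids held 2285 ± 384 CPM, with no call at that step. It rose again at each of the 4 later steps, by 0.34 ± 0.12, 0.75 ± 0.12, 0.78 ± 0.12 and 0.45 ± 0.12, to 3461 to 5272 CPM in late condensing spermatids (median 4812). Mean CPM went from 2285 in early round spermatids to 2417, 2745, 3608 and 4617 in the later classes. The fitted rises follow the TMM scaling and are larger than these differences in CPM, most of all at the first of these steps. In all 6 libraries each of the last 3 classes was above the one before, although the library ranges of neighbours overlapped. Without the library as a block, the steps into later round and late condensing spermatids were not called. A nearly identical transcript, Gpx4-ps2, matches Gpx4 at 99.75% over 400 bases and was not among the counted genes, so how its reads were assigned is uncertain.

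Txnrd3, the other selenoenzyme, followed a different course. It rose over the first 3 steps, by 0.64 ± 0.10, 1.15 ± 0.10 and 0.65 ± 0.10 on the log2 scale (adjusted p at most 2.70e-07), from a median of 144 CPM in spermatogonia (113 to 195) to 546 CPM in late spermatocytes (493 to 647). Early round spermatids held 404 to 517 CPM (median 434), and from there the level fell at the next 3 steps, by 0.28 ± 0.10, 0.94 ± 0.10 and 0.60 ± 0.11. Late condensing spermatids held 38.4 to 62.9 CPM (median 50.2), 9.16% of the mean of late spermatocytes. That is within the 2.76% to 11.7% that 8 spermatocyte markers kept in the same class relative to their own highest germ class, so the remaining level could not be told from carried or free RNA. The selenoenzymes thus parted after meiosis: from late spermatocytes to late condensing spermatids the mean of Gpx4 went from 2304 to 4617 CPM and that of Txnrd3 from 555 to 50.8 CPM.

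Both spermatid thioredoxins had their largest rise between classes after the spermatocytes, Txndc8 into early round and Txndc2 into later round spermatids. Txndc8 stood at 12.7 to 25.1 CPM in pachytene spermatocytes (median 19.3), which is 7.24% of its whole-library level and within the share of free spermatid RNA in that class. It rose by 1.40 ± 0.15 into late spermatocytes, where its share (17.8%) was above that of the 4 spermatid genes. The rise into early round spermatids was 2.60 ± 0.15 (adjusted p = 5.54e-24), to 239.5 to 336 CPM with a median of 257. Later round spermatids held 486 to 663 CPM (median 553), a further rise of 1.35 ± 0.14, and no library of the earlier classes reached their lowest value. In starting elongation and elongating spermatids the means were 437 ± 43.1 and 417 ± 69.4 CPM and neither step was called. The fitted changes were upward, 0.19 ± 0.13 and 0.31 ± 0.14 (adjusted p = 0.208 and 0.0697), while mean CPM fell. Which of these classes is highest thus depends on the scaling. The last step was a fall of 0.50 ± 0.14, to 226 to 346 CPM in late condensing spermatids.

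Txndc2 remained at the background share for longer. Late spermatocytes held 3.95 to 16.5 CPM (median 8.80), 6.70% of the whole-library level, inside the range of the spermatid genes. Early round spermatids held 8.98 to 27.3 CPM (median 22.0), a rise of 1.18 ± 0.20, and their share of 14.0% was above the 7.19% to 9.65% of the 4 spermatid genes there. The rise into later round spermatids, 3.40 ± 0.19 (adjusted p = 1.00e-24), brought the level to 143 to 204 CPM (median 172), apart from all earlier classes. At the start of elongation Txndc2 rose by 2.09 ± 0.16 to 412 to 556 CPM (median 493), and in elongating spermatids by 0.79 ± 0.16 to 605 to 797.5 CPM (median 631). Late condensing spermatids held 423 to 594 CPM (median 489), below all elongating libraries in CPM, while the step in the fit was not called (adjusted p = 0.103).

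Before meiosis the levels of both thioredoxins were near those of free RNA. In spermatogonia Txndc2 had 22.4% and Txndc8 15.0% of its whole-library level, and in early prophase 31.9% and 19.5%, beside 16.6% to 21.0% and 24.9% to 32.3% for the 4 spermatid genes. The fit called both higher in early prophase than in spermatogonia, Txndc2 by 0.66 ± 0.20 (adjusted p = 0.00399) and Txndc8 by 0.41 ± 0.17 (adjusted p = 0.0390), and both lower in the pachytene class, by 1.52 ± 0.20 and 1.08 ± 0.17. The spermatid genes moved the same way over these classes, and their part in these calls was not tested. The early prophase rise of Txndc8 changed sign to -0.15 when the gates asked for double the marker share, and that of Txndc2 was no longer called with DESeq2's size factors (0.35). Leaving out HFD replicate 2 or 3 or any LFD library also ended the Txndc8 call, at 0.27 to 0.40.

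**Figure D2:**
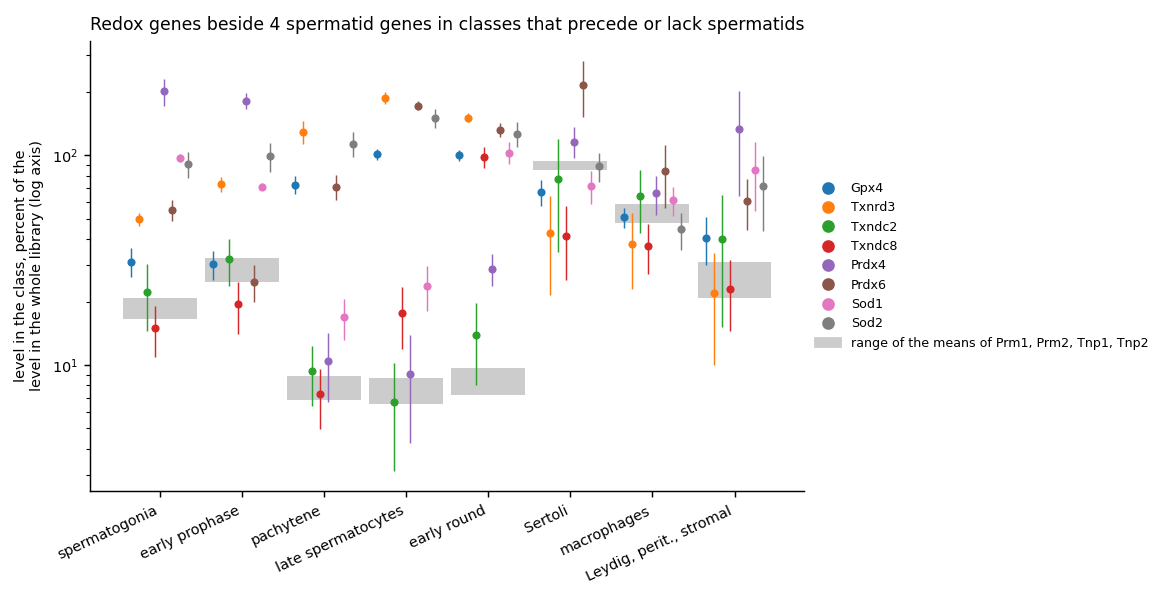
Level of 8 redox genes in the germ cell classes up to and including early round spermatids and in the somatic classes. Values are a percent of the gene's level in the whole library (log axis), mean ± SD of 6 libraries. Grey boxes span the means of Prm1, Prm2, Tnp1 and Tnp2, genes of late spermatids. Txndc2 and Txndc8 lay in or near the boxes before the late spermatocyte class, Prdx4 in pachytene and late spermatocytes, and Gpx4 and Prdx6 in early prophase, while Prdx4 in spermatogonia stood at 202%.

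The peroxiredoxins of the list took opposite courses through meiosis. Prdx4 lies on the X chromosome (chrX:155323918-155340754, minus strand). Spermatogonia held 294 to 405 CPM of it (median 349) and early prophase spermatocytes 274 to 396 (median 317), with overlapping libraries. In pachytene spermatocytes 13.6 to 26.5 CPM remained (median 16.4), a fall of 3.86 ± 0.16 (adjusted p = 3.89e-30) that left no library near those before. Late spermatocytes were as low, with 10.4 to 27.9 CPM and a median of 13.0. At 10.5% and 9.05% of the whole-library level, beside 6.80% to 8.87% and 6.51% to 8.73% for the spermatid genes, these values could not be told from free RNA.

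Prdx4 then returned in 4 rises: 1.84 ± 0.16 into early round spermatids (46.2 to 56.2 CPM, median 47.9), 2.14 ± 0.15 into later round spermatids (152 to 205, median 183), 1.92 ± 0.14 at the start of elongation (336 to 545, median 473) and 0.92 ± 0.14 into elongating spermatids (610.3 to 794, median 669). The last step was a fall of 0.81 ± 0.14, to 312 to 435 CPM. Genes of the X chromosome are silenced in the pachytene stage of male meiosis, a known feature of spermatogenesis, and the other X-linked genes give the setting for Prdx4. Of 524 X-linked genes tested, 86.3% were lower in the pachytene class and 0 higher, with a median log2 change of -4.19, against 37.6% lower and a median of -0.17 on the autosomes. At the next 3 steps 53.6%, 51.9% and 41.6% of the X-linked genes were higher, against 32.2%, 27.4% and 30.0% on the autosomes. Prdx4 was not called at the late spermatocyte step (adjusted p = 0.545), where its level was at the background, and was called at the other 2.

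Prdx6 was lowest in early prophase, with 32.0 to 59.3 CPM (median 38.1), after 78.6 to 99.3 CPM (median 90.9) in spermatogonia, a fall of 1.00 ± 0.13 (adjusted p = 1.94e-09) with no overlap of libraries. The early prophase level, 24.9% of the whole-library level, lay at the lower end of the spermatid gene range and could not be told from free RNA, while spermatogonia were at 54.7%. From early prophase Prdx6 rose into the pachytene class by 1.78 ± 0.13 and into late spermatocytes by 1.39 ± 0.11. There the 6 libraries lay between 277 and 296 CPM (median 285), above all libraries of the other germ cell classes. Early round spermatids held 195 to 233 CPM (median 223) and later round spermatids 157 to 186 (median 177). The first of these steps was called as a fall of 0.28 ± 0.11 (adjusted p = 0.0243) and was not called without HFD replicate 1, 2 or 3 (-0.27, -0.25 and -0.27). The steps into later round, starting elongation and elongating spermatids were not called (-0.06, -0.20 and -0.15, adjusted p = 0.652, 0.112 and 0.373). Mean CPM went from 175 in later round spermatids to 104 and 70.5 in the next classes. In late condensing spermatids 39.1 to 48.1 CPM were left (median 42.3), and the step into them was called as a fall of 0.56 ± 0.13. Where Prdx4 dropped to the background in pachytene and late spermatocytes, Prdx6 thus climbed to its highest germ cell level.

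Both superoxide dismutases were expressed from spermatogonia on, but at different stages. Sod1, the cytosolic enzyme, held 301 to 366 CPM in spermatogonia (median 329) and 215 to 284 in early prophase (median 244), a fall of 0.36 ± 0.12 (adjusted p = 0.00928). It dropped by 1.76 ± 0.13 (adjusted p = 1.09e-19) to 46.7 to 72.1 CPM in pachytene spermatocytes (median 57.4), 17.0% of its whole-library level. Late spermatocytes held 53.7 to 104 CPM (median 84.5), and early round spermatids 319 to 366 (median 356), a rise of 2.24 ± 0.12 (adjusted p = 2.24e-24) that separated all libraries. Rises of 0.86 ± 0.12, 0.64 ± 0.12, 0.55 ± 0.12 and 0.45 ± 0.12 followed, to 703 to 888 CPM in late condensing spermatids (median 826). The last of these was not called without LFD replicate 1 (0.33), and the one before was not called with the stricter gates (0.27). In later round, starting elongation and elongating spermatids the mean CPM was 535, 564 and 635, with overlapping ranges of neighbours. The fitted rises of 0.64 and 0.55 follow the TMM scaling and are larger than these differences in CPM. Sod1 overlaps Scaf4 on the other strand, and the transcript of Gm8566, which was not counted, matches it at 97.9% over 328 bases, so a part of its count is uncertain.

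Sod2, the mitochondrial enzyme, did not show the drop of Sod1 in the pachytene class. Its 6 libraries held 204 to 246 CPM in spermatogonia (median 232), 216 to 289 in early prophase (median 238) and 267 to 315 in pachytene spermatocytes (median 281). The pachytene step was called as a rise of 0.55 ± 0.14 (adjusted p = 0.000385), but its direction depended on the scaling, with -0.12 under DESeq2's size factors. The rise into late spermatocytes, 0.51 ± 0.13, brought Sod2 to 368 to 409 CPM (median 376). Mean CPM was lower in early round spermatids (321), with all libraries below those of late spermatocytes, and lower again in later round spermatids (225). Neither step was called in the fit (-0.14 ± 0.14 and -0.25 ± 0.14, adjusted p = 0.386 and 0.118). The largest fall came at the start of elongation, 1.26 ± 0.14 (adjusted p = 6.22e-12). It led from 209 to 243 CPM in later round spermatids (median 221) to 37.0 to 163 CPM (median 55.0). HFD replicate 2 gave the highest of these values, the other 5 libraries were at or below 67.9 CPM, and without it the fall was 1.58. In elongating spermatids 22.5 to 49.5 CPM remained (median 38.7), 9.62% of the level in late spermatocytes, while the 8 spermatocyte markers kept 2.87% to 9.04% in that class. The steps into elongating spermatids, a fall of 0.50 ± 0.16, and into late condensing spermatids, a rise of 0.58 ± 0.18, start from such low levels. In late condensing spermatids Sod2 was at 13.3% of its highest germ cell level, above the 2.76% to 11.7% of the 8 markers there. The former step was not called without HFD replicate 2 (-0.19) and the latter not without HFD replicate 3 (0.53) or LFD replicate 1 (0.49). Stretches of 98 to 193 bases of Sod2 transcripts match transcripts of Sag, Tmem245, Gm26909, Churc1 and Pola2 at 95.2% to 96.9%, which makes the assignment of such reads uncertain.

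Cat was a gene of spermatogonia and of somatic cells. Spermatogonia held 18.7 to 24.5 CPM (median 23.6, 234 UMIs in all), and early prophase spermatocytes 0.611 to 3.12 CPM (median 2.16, 19 UMIs), a fall of 3.45 ± 0.28 (adjusted p = 1.48e-16) with all libraries apart. Pachytene spermatocytes held 59 UMIs, late spermatocytes 18, early round spermatids 4, later round spermatids 77 and the 3 last classes 4, 4 and 1. At these counts the later changes that were called (a fall of 1.49 ± 0.34 into late spermatocytes, a rise of 1.91 ± 0.53 into later round spermatids and a fall of 1.76 ± 0.54 at the start of elongation) concern levels at or below 1.51 CPM in every library. The spermatogonial level was 1490% of the whole-library level, far from the share of free spermatid RNA.

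The members' courses resembled each other in a few cases. Over the 54 sums of 9 classes and 6 libraries, which share libraries and depth, Pearson's r of log2(CPM + 5) was 0.92 between Txnrd3 and Sod2, 0.85 between Prdx4 and Sod1, 0.83 between Sod1 and each of Txndc2 and Txndc8, and -0.90 between Txndc2 and Sod2. Among 10295 other genes of at least 20 CPM in a class, Txndc2 was most like Tctex1d1, Rnf133 and Cst8 (r of 0.994, 0.993 and 0.992), and Txndc8 most like Tmco5, Cylc2 and 1700013F07Rik (0.989, 0.987 and 0.987). Gpx4 was most like Tcp11, Mea1 and Gm5617 (0.981, 0.978 and 0.967), and Txnrd3 most like Larp7, Wdr12 and Vdac3 (0.981, 0.980 and 0.979). Prdx4 was most like Luzp1, Yipf6 and Syce2 (0.938, 0.935 and 0.924). The nearest to Sod1 were Dynll2, Paip2 and Acsl1 (0.955, 0.952 and 0.952), and the nearest to Sod2 Strap, Cct4 and Brd2 (0.985, 0.983 and 0.981).

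The wider redox system gave a frame for these courses, from lists of 62 other genes. Of the 39 that reached 20 CPM in a germ cell class, 16 had their highest mean in spermatogonia, 2 in early prophase, 6 in pachytene and 4 in late spermatocytes, 3 in early and 2 in later round spermatids and 6 in late condensing spermatids, with 0 in starting elongation or elongating spermatids. Txndc2 and Prdx4 peaked in elongating spermatids. From spermatogonia to early prophase 23 of the 48 tested fell and 11 rose, with a median log2 change of -0.27 beside 0.15 for all genes tested. In that step 5 of 6 tested thioredoxin and reductase genes fell (Txn1, Txn2, Txnip, Txnrd1 and Txnrd2) and 0 rose, and 4 of 6 tested peroxiredoxin and sulfiredoxin genes fell (Prdx1, Prdx2, Prdx3 and Prdx5) and 1 rose (Prdx6b). The 3 methionine sulfoxide reductases tested, Msra, Msrb2 and Msrb3, all rose. Over all genes tested 27.7% fell and 29.7% rose at this step, and no test set these short lists against other genes. Under DESeq2's size factors calls in this step shifted from 4534 higher and 4231 lower over all genes to 2755 higher and 5608 lower.

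Of the genes named from the lists by their ratio of highest to lowest class mean, these were highest in spermatogonia. Prdx1, the abundant cytosolic peroxiredoxin, had 855 ± 79.7 CPM in spermatogonia (728 to 940.3) and 15.2 ± 5.95 CPM in late condensing spermatids. Txn1, the main cytosolic thioredoxin, went from 95.4 ± 9.08 CPM to 0.333 ± 0.495 CPM in elongating spermatids, and its inhibitor Txnip from 118 ± 30.0 to 1.22 ± 0.516 CPM at the start of elongation. Gsr, which reduces glutathione disulfide, had 177 ± 26.1 CPM in spermatogonia and 0.862 ± 0.937 in late spermatocytes, and Gclc, the catalytic subunit of the first enzyme of glutathione synthesis, 99.8 ± 11.7 CPM in spermatogonia and 1.42 ± 0.833 at the start of elongation. The same class held the highest means of Nfe2l2, the transcription factor of the antioxidant response (54.0 ± 3.81 CPM), of Hmox1, which degrades haem (36.6 ± 7.66), of Gpx1, the cytosolic glutathione peroxidase (31.8 ± 12.7), of Msrb1 (35.4 ± 8.22) and of Pstk, a kinase of selenocysteine synthesis (51.6 ± 7.68).

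Other genes of the lists were highest later. Msrb3 peaked in late spermatocytes at 79.3 ± 8.99 CPM. Ccs, the copper chaperone that loads Sod1, was highest in early round spermatids at 164 ± 29.3 CPM and fell to 9.98 ± 4.56 CPM in elongating spermatids, while Sod1 itself went on rising. Mgst3 reached 34.2 ± 6.99 CPM in early round and Gpx6 91.3 ± 5.48 CPM in later round spermatids. Srxn1, sulfiredoxin, which restores overoxidised peroxiredoxins, had 1.86 ± 0.963 CPM in late spermatocytes and 74.2 ± 10.3 CPM in late condensing spermatids. Gstm5, a glutathione transferase, climbed from 735 ± 181 CPM in spermatogonia to 8429 ± 669 CPM in late condensing spermatids (7439 to 9045). It belongs to a family of similar genes, so part of its count may come from relatives.

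At the later steps the same 48 genes showed no common direction. Into the pachytene class 18 rose and 20 fell (median -0.19, beside -0.24 for all genes tested), into late spermatocytes 14 and 20 (-0.16, beside -0.06), into early round spermatids 12 and 17 (-0.29, beside -0.08) and into later round spermatids 11 and 8 (-0.01, beside 0.04). At the start of elongation 14 rose and 14 fell (0.14, beside -0.04), into elongating spermatids 9 and 11 (-0.07, beside -0.09) and into late condensing spermatids 8 and 6 (0.26, beside 0.21). Of the machinery of selenoprotein synthesis and other selenoproteins, 12 genes, 11 were tested. At the start of elongation, where Gpx4 rose and Txnrd3 fell, 6 of them fell (Eefsec, Lrp8, Pstk, Selenot, Sephs2 and Sepsecs) and 2 rose (Secisbp2 and Selenok), beside 33.6% of all genes lower and 29.4% higher. In the next step 5 fell, beside 23.9% of all genes, among them again Eefsec, the elongation factor for selenocysteine, and Sephs2 and Sepsecs, enzymes that make the selenocysteine of the tRNA. Calls over all genes shifted with the scaling at the pachytene step (5021 higher and 5994 lower, against 2966 and 8873 with DESeq2's size factors) and into elongating spermatids (1970 higher and 3652 lower, against 3605 and 2650). The median of all genes then moved from -0.24 to -0.90 at the former step and from -0.09 to 0.18 at the latter.

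Somatic cells of the testis had their own share of these enzymes. Macrophages were compared with the mean of the 9 germ cell classes on the log2 scale (edgeR, 15532 genes, of which 39.7% were called, 17.9% higher and 21.8% lower). Of the 9 redox genes 1 was higher and 6 were lower in macrophages. Cat was higher by 4.25 ± 0.51 (adjusted p = 7.68e-11), with 5.36 to 50.0 CPM (median 13.4, 15 UMIs in all). Gpx4, Txnrd3, Sod1, Txndc8, Sod2 and Prdx4 were lower, by 1.35 ± 0.11, 1.22 ± 0.14, 1.10 ± 0.14, 1.02 ± 0.21, 0.99 ± 0.16 and 0.92 ± 0.21, and the falls of Txndc8 and Prdx4 were not called with DESeq2's size factors (-0.49 and -0.39), which moved the median of all genes from -0.40 to 0.14. Txndc2 and Prdx6 were not called (adjusted p = 0.195 and 0.368). In macrophages Gpx4, Txndc2 and Txndc8 had 50.8%, 64.0% and 37.0% of their whole-library levels, and Txnrd3, Sod2, Sod1 and Prdx4 had 38.0%, 44.4%, 61.1% and 65.9%, beside 47.8% to 58.7% for the spermatid genes, so none of the 7 could be clearly told from free RNA. Prdx6 was at 84.2%.

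Sertoli cells, the nurse cells of the seminiferous epithelium, numbered at least 15 barcodes per library and were tested under a lower minimum of 10 that was chosen after the data were seen. Of 15572 genes 60.6% were called there, and of the redox genes 2 were higher and 4 lower. Prdx6 was higher than the mean of the germ cells by 1.27 ± 0.10 (adjusted p = 6.99e-20), with 178 to 449 CPM (median 404). The lowest value came from HFD replicate 2. Cat was higher by 2.84 ± 0.47 on 17 UMIs. Txnrd3, Gpx4, Sod1 and Txndc8 were lower, by 1.25 ± 0.12, 0.99 ± 0.10, 0.95 ± 0.11 and 0.91 ± 0.15, and Sod2, Prdx4 and Txndc2 were not called. With the spermatid genes at 85.1% to 94.3% of their library level in this class, the low values of germ cell enzymes there were not told from free RNA. In Leydig, peritubular and stromal cells, with as few as 5 barcodes in a library and no test, Cat had its highest mean of all classes, 40.1 ± 12.8 CPM (27.2 to 56.8, n = 6, 43 UMIs).

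The diets were compared to ask whether 2 weeks of HFD went with a change in these transcripts in the testis or in any class of cells. In the whole testis none of the 9 was called, nor was any of the 20727 genes tested (0%; 471 had an unadjusted p under 0.05 in edgeR, 444 with DESeq2, which also called 0). The HFD minus LFD log2 fold changes were 0.17 ± 0.14 for Sod2, 0.13 ± 0.18 for Prdx4, 0.11 ± 0.18 for Txndc8, 0.09 ± 0.19 for Txndc2, 0.07 ± 0.17 for Txnrd3, 0.07 ± 0.15 for Sod1, 0.04 ± 0.13 for Prdx6, -0.08 ± 0.20 for Cat and -0.11 ± 0.19 for Gpx4 (SE, adjusted p between 0.986 and 0.994). Only Cat separated the groups, with all HFD libraries below all LFD libraries in a whole-testis range of 1.42 to 1.63 CPM, a pattern that 6.68% of all genes tested had in either direction. In a whole testis, fewer cells of a type and less RNA per cell cannot be told apart.

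Within classes 83 combinations of a redox gene and a class were tested, and 0 were called. The smallest adjusted p was 0.372 (Sod1 in pachytene spermatocytes), 6 had an unadjusted p under 0.05, and log2 fold changes ran from -0.51 to 0.70. Over all genes 0 were called in any class but elongating spermatids, where 2 of 6856 were (0.0292%). The other redox genes of the lists gave 0 calls among 60 tested in the whole testis and 0 in each class. In the whole testis 1 of these 60 had an unadjusted p under 0.05. The 3 with the smallest p there were Gclc at 0.49 ± 0.18 (unadjusted p = 0.0215 in edgeR's test), Glrx3 at 0.30 ± 0.14 (0.0637) and Gclm at 0.27 ± 0.16 (0.110). The adjusted p was 0.986 for each. They come from the list of glutathione synthesis, recycling and glutaredoxins, and no test set that list against other genes.

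**Figure D3:**
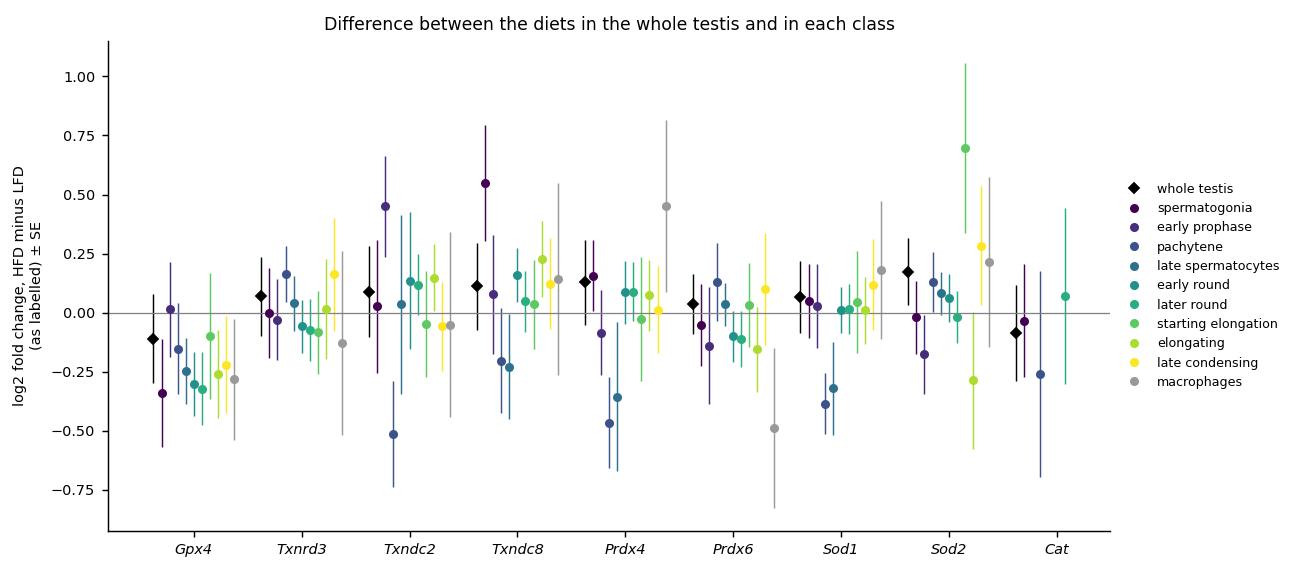
HFD minus LFD log2 fold change, as labelled, with its SE for each redox gene in the whole testis (diamonds) and in 10 classes (circles). The estimates lie on both sides of 0, 0 of them passed an adjusted p of 0.05, and Gpx4 lies below 0 in 9 of 10 classes.

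Some combinations had groups that did not overlap. All HFD libraries were above all LFD libraries for Txndc8 and Prdx4 in spermatogonia, Txndc2 in early prophase, Sod1 in later round spermatids and Sod2 in late spermatocytes, and below them for Prdx4 and Sod1 in pachytene spermatocytes. Prdx4 in pachytene spermatocytes had 14.9, 15.8 and 13.6 CPM in the HFD libraries and 17.1, 26.5 and 18.9 in the LFD libraries, all near free RNA. Sod1 had 46.7, 53.7 and 48.2 CPM there against 61.0, 72.1 and 64.1, a log2 fold change of -0.39 in the fit. Between 6.29% and 14.6% of all genes tested showed such a separation in a class (14.6% in pachytene spermatocytes, 7.69% in spermatogonia, 10.7% in early prophase, 10.9% in late spermatocytes and 6.92% in later round spermatids), so the 7 of 83 seen here are within the background.

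Gpx4 was the gene whose diet differences lay on the same side of 0 in the most classes, below 0 in 9 of 10. Sod1 and Txndc8 came next, each above 0 in 8 of 10. In the whole testis its HFD libraries held 2755, 1916 and 1768 CPM (replicates 1, 2 and 3) and its LFD libraries 2574, 2348 and 2349 CPM. In late spermatocytes the values were 2628, 1819 and 1857 against 2465, 2536 and 2518, and in early round spermatids 2609.5, 1778 and 1821 against 2576, 2389 and 2538. HFD replicates 2 and 3 were the lowest libraries in these 3 comparisons and HFD replicate 1 the highest, so the groups overlapped. The fitted log2 fold change was below 0 in 9 of 10 classes (-0.34 to 0.01), with -0.25 ± 0.14 in late spermatocytes, -0.30 ± 0.13 in early round and -0.22 ± 0.21 in late condensing spermatids, and none was called (smallest adjusted p = 0.648).

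**Figure D4:**
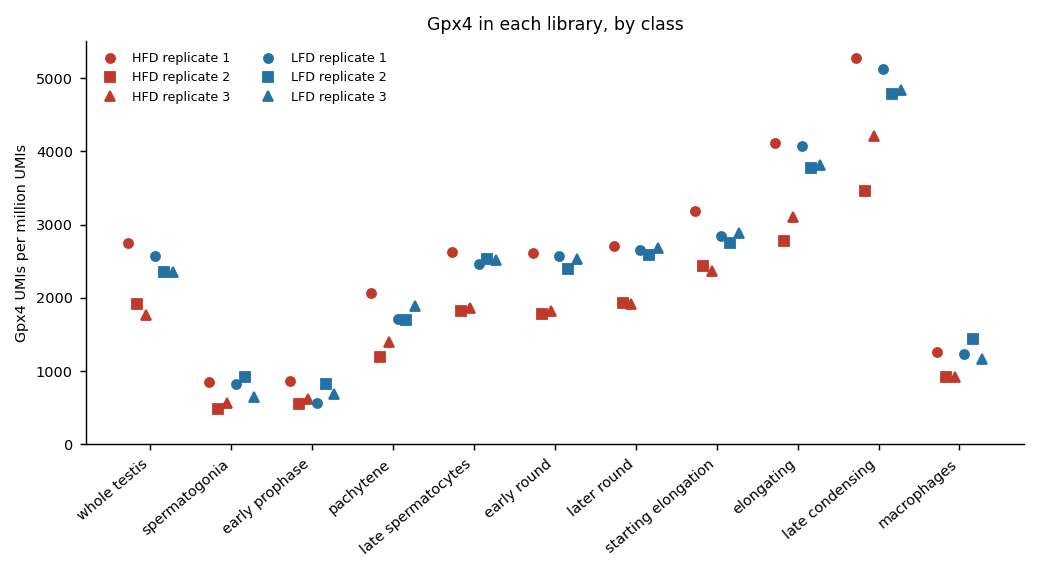
Gpx4 in each library (CPM, linear axis from 0) in the whole testis and in 10 classes, with the labelled diet as colour and the replicate number as symbol. HFD replicates 2 and 3 lie below LFD replicates 2 and 3 in all 11 positions shown, while HFD replicate 1 lies above LFD replicate 1. Sertoli cells, Leydig, peritubular and stromal cells and barcodes of no class are not shown.

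Because both libraries numbered 1 stood apart, the difference was also taken within each set. Between the libraries numbered 1, HFD minus LFD was 0.01 to 0.61 on the log2 scale of mean CPM over these 11 comparisons, and between the libraries numbered 2 and 3 it was -0.58 to -0.23, with both HFD libraries below both LFD libraries in all 11. In single comparisons 17.3% to 32.6% of all genes of at least 20 CPM showed that order, and of 1910 genes that reached 20 CPM in all 11, 15 (0.785%) showed it throughout, Gpx4 among them. The classes of 1 library share its preparation, so these 11 are not independent. Outside them the order did not hold. The libraries numbered 2 and 3 overlapped in Sertoli cells, in Leydig, peritubular and stromal cells and in barcodes of no class. The differences there were 0.11, -0.31 and -0.12, and barcodes of no class held 27.7% of the UMIs. Without HFD replicate 1, Gpx4 was called lower in HFD in late spermatocytes (-0.42 ± 0.08, adjusted p = 0.00839) and early round spermatids (-0.53 ± 0.06, adjusted p = 0.00135), and Sod1 in late spermatocytes (-0.57 ± 0.12, adjusted p = 0.0154). In that setting 14.8% and 6.93% of all genes were called in these classes, against 0 with all 6 libraries, so the calls rest on leaving out 1 library and are shared with many genes.

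In the whole testis the levels of Txndc2 and Prdx4 were higher in the libraries numbered 1 of both diets. Txndc2 had 178.7 and 177 CPM in the libraries numbered 1 and 130.4 to 135 in the other 4, and Prdx4 had 209 and 201 against 151 to 165, in the libraries that also held 3.87% and 4.93% of elongating spermatids, against 1.05% to 1.29%. The part of this make-up in the whole-testis values was not tested. Within elongating spermatids, where both genes peak, the libraries numbered 1 held 613 and 605 CPM of Txndc2 and the others 612 to 797.5, and 673 and 670.2 CPM of Prdx4 and the others 610.3 to 794.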

How the data were processed

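Testes of 6 wildtype mice were dissociated and sequenced by the 3-prime droplet method of 10x Genomics, kit version 2 per the labels and a later one in the study's methods. Alignment to mm10 (GRCm38), barcode calling and UMI counting were done by the authors in Cell Ranger 6.0.1, and the deposited matrices hold the raw counts. Diet groups follow the sample labels (3 HFD, 3 LFD), and annotations or tests of the authors were not used. The filter of 200 to 40000 genes removed 0 barcodes. A barcode joined a class when its UMIs of that class's markers numbered at least 3, exceeded the library's share at a Poisson threshold of 0.001 and reached a score of at least 0.3 on a scale set by the top 1% of barcodes. No doublet caller was run: 94 gated barcodes (0.721%) also passed the gate of a distant class and were left out in an alternative.

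UMI counts were summed per library and class (classes with at least 20 barcodes in every library) and tested with edgeR 4.0.16 (quasi-likelihood, TMM, filterByExpr, two-sided) in R 4.3.3, with Benjamini-Hochberg adjustment over all genes tested and calls at an adjusted p under 0.05. Each diet comparison was fitted alone without a covariate, and the steps and the somatic contrast with the library as a block. Fold changes follow TMM scaling and need not equal ratios of CPM. Genes of the gates were not tested. The replicates are separate mice per the study's methods. Alternatives were DESeq2 1.42.0 and its size factors (RLE), no filter, each library left out, the replicate number or the libraries numbered 1 as a term, deep barcodes (3000 UMIs or more), no co-gated barcodes and gates at double the share. Levels and tests were computed in Python 3.11.15 (numpy 2.4.6, pandas 2.3.3, scipy 1.17.1), transcripts were aligned with BLAST 2.17.0, and the scripts were tested on simulated data. Other redox genes were named by the ratio of highest to lowest class mean (2 per list, at least 20 CPM) and by the smallest diet p (3 genes). The genes most like Prdx6 and Cat in their pattern are not reported here. The members, markers and lists were chosen with earlier results of these data known. Counting error of UMIs and the 6 libraries limit the precision.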

Additional observations from a re-analysis of the deposited data

Results flagged for a closer look

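In 117 groups of 6 libraries (9 genes in the whole testis and 12 classes), 11 had a library farther from the others than Dixon's 95% limit allows, where chance gives about 1 in 20. In germ cells these were Txndc8 in early round spermatids of HFD replicate 2 (336 CPM, the others 239.5 to 264), Prdx4 in late spermatocytes of LFD replicate 2 (27.9 CPM, the others 10.4 to 15.7), Prdx4 in elongating spermatids of HFD replicate 3 (794 CPM, the others 610.3 to 673), Prdx6 at the start of elongation in HFD replicate 2 (138 CPM, the others 90.9 to 107) and Sod2 in the same class and library (163 CPM, the others 37.0 to 67.9). Cat in late condensing spermatids of HFD replicate 1 (0.202 CPM) rested on 1 UMI, with 0 in the other libraries. In somatic cells they were Prdx4 in the Leydig, peritubular and stromal class of HFD replicate 3 (441 CPM, 16 UMIs), Sod2 in Sertoli cells (335 CPM, 36 UMIs) and macrophages (171 CPM, 24 UMIs) of HFD replicate 3, Cat in Sertoli cells of LFD replicate 3 (24.0 CPM, 5 UMIs) and Cat in macrophages of HFD replicate 3 (50.0 CPM, 7 UMIs).

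For 2 genes the diet groups were apart in opposite directions in different classes. On the log2 scale of mean CPM, HFD minus LFD was 0.18 for Prdx4 in spermatogonia and -0.49 in pachytene spermatocytes, and 0.077 for Sod1 in later round spermatids and -0.41 in pachytene spermatocytes. The difference between the classes was not tested.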

How the results depend on the processing

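Of 649 refitted step fold changes of called redox genes 618 kept direction and call, 28 kept the direction but were not called and 3 changed sign. The latter were Sod2 into the pachytene class with DESeq2's size factors (-0.12) and with DESeq2 (-0.13) and Txndc8 into early prophase with gates at double the share (-0.15), and the cause was not tested. In macrophages 75 of 77 kept direction and call. Of 972 class levels 28 moved by more than the replicate SD, all with gates at double the share, which left 20 barcodes per library in 6 germ cell classes and in macrophages.

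The number of redox genes called by diet was 0 under all alternatives run except the omission of HFD replicate 1, with a range over the omissions of 0 to 2 in late spermatocytes and 0 to 1 in early round spermatids. The number of all genes called by diet was less stable. Without the filter on low counts it was 5 in spermatogonia, 5 in early prophase, 283 in pachytene and 79 in late spermatocytes, 2 in early round, 10 in later round, 19 in starting elongation, 24 in elongating and 12 in late condensing spermatids. With DESeq2 it was 1 in spermatogonia, 79 in pachytene spermatocytes and 5 in elongating spermatids. With a term for the libraries numbered 1 it was 1 in early round spermatids, 7 in elongating spermatids and 3 in macrophages. In elongating spermatids it was 0 with gates at double the share and 1 without co-gated barcodes. Omitting a library gave ranges of 0 to 2 in the whole testis and spermatogonia, 0 to 1 in early prophase, 0 to 152 in pachytene spermatocytes, 0 to 1783 in late spermatocytes, 0 to 721 in early round spermatids, 0 to 10 in elongating and 0 to 11 in late condensing spermatids. The causes were not tested.

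With a library omitted, diet fold changes that changed sign ranged in the whole testis from -0.047 to 0.077 for Prdx6, -0.046 to 0.26 for Txndc8, -0.12 to 0.18 for Txnrd3, -0.43 to 0.017 for Gpx4, -0.12 to 0.16 for Sod1, -0.16 to 0.28 for Txndc2 and -0.10 to 0.30 for Prdx4. In classes they ranged from -0.16 to 0.070 for Cat in spermatogonia, -0.081 to 0.14 for Txnrd3 in late spermatocytes, -0.039 to 0.048 for Sod1 in early round, -0.052 to 0.21 for Txndc8 in later round and -0.0059 to 0.15 for Prdx4 in elongating spermatids.

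The replicate numbers are shared by the diets, but same-numbered libraries deviated together (every r above 0.1) only at the start of elongation (0.38, 0.39 and 0.10), against 0.49, 0.03 and 0.26 in the whole testis. With the replicate number as a block, 31 genes were called in the whole testis, 2 in early prophase, 1 in late spermatocytes, 1 in early round spermatids, 7 at the start of elongation, 12 in elongating spermatids and 3 in macrophages, and 0 redox genes in any of them. Depth limits Cat, with 644 UMIs in all, and the somatic classes.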
